A study of Mus musculus with 6 samples.

Results

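Cathepsins are proteases of endosomes and lysosomes. The genes described here are 10 of that family: the cysteine proteases Ctsb, Ctsc, Ctsf, Ctsh, Ctsl, Ctss and Ctsz, the aspartyl proteases Ctsd and Ctse, and Ctsa. Ctsa was grouped with them, although the enzyme it encodes is a serine carboxypeptidase. The members were found by gene symbol in the array annotation, all 10 of 10 with 1 row each, among 33786 gene symbols in all. The row of Ctsd also carries the symbol of its chromosomal neighbour Ifitm10, so a signal of one gene cannot be told apart from a signal of the other there. All 10 rows lay above the background level of the arrays (6.23 on the log2 scale) on each of the 6 arrays.

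The cells were epididymal fat macrophages of male C57BL/6J mice. They were selected magnetically from the collagenase-released stromal vascular cells with an antibody to the surface protein that Adgre1 encodes. One group of mice (HFD, obese) ate a diet with 60% fat for 16 weeks, and the other (NCD, lean) ate normal chow for as long. Both started at 6 weeks of age and were 22 weeks old at the end, with no other treatment or genetic change named. Each group has 3 arrays, written HFD1 to HFD3 and NCD1 to NCD3, and each array carried RNA of 1 pool of 10 HFD or 20 NCD mice. The titles call the pools biological replicates; a pool averages its mice, so differences between single mice were not seen. The question of the series is how adipose tissue macrophages differ between obese and lean mice.

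Cathepsins are made as inactive proenzymes, tagged with mannose 6-phosphate in the Golgi, carried to endosomes by receptors for that tag, and activated there when the propeptide is cut off in acid. In macrophages they break down what the cell has engulfed and trim proteins for antigen presentation, and some are released and cut extracellular matrix. Cystatins and stefins block the cysteine cathepsins outside and inside the cell. Many lysosomal genes carry a short DNA element, built around the letters CACGTG, to which the transcription factor Tfeb and its relatives bind.

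Of the 10 genes, 6 rose in HFD macrophages: Ctsl 2.86-fold, Ctsz 1.99-fold, Ctsa 1.77-fold, Ctss 1.57-fold, the Ctsd row 1.5-fold and Ctsb 1.46-fold. None fell, and Ctsc, Ctse, Ctsf and Ctsh were not called. The test was limma's moderated test over 31722 array rows, with Benjamini-Hochberg adjusted p-values over all of them, and a gene is called, or said to have risen or fallen, at an adjusted p below 0.05. In the same test 7.73% of all rows were called, 4.9% higher in HFD and 2.83% lower, and among rows above background the shares were 8.61% and 4.49%. At an unadjusted p under 0.05 the numbers of members were 6 higher and 1 lower, Ctsc. The share of all rows at that unadjusted threshold was not counted. Unadjusted counts, here and for the lists below, are therefore not set against the shares above. The median change over the 10 genes was 0.56 on the log2 scale (HFD minus NCD), against 0.01 over all genes. In 6 members every HFD array lay above every NCD array, in 1 every HFD array lay below, and in 3 the diets overlapped; over all rows 17.5% had all HFD arrays above and 12.8% all below. All members and lists were chosen with earlier results of these data known, so these counts describe the family.

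**Figure D1:**
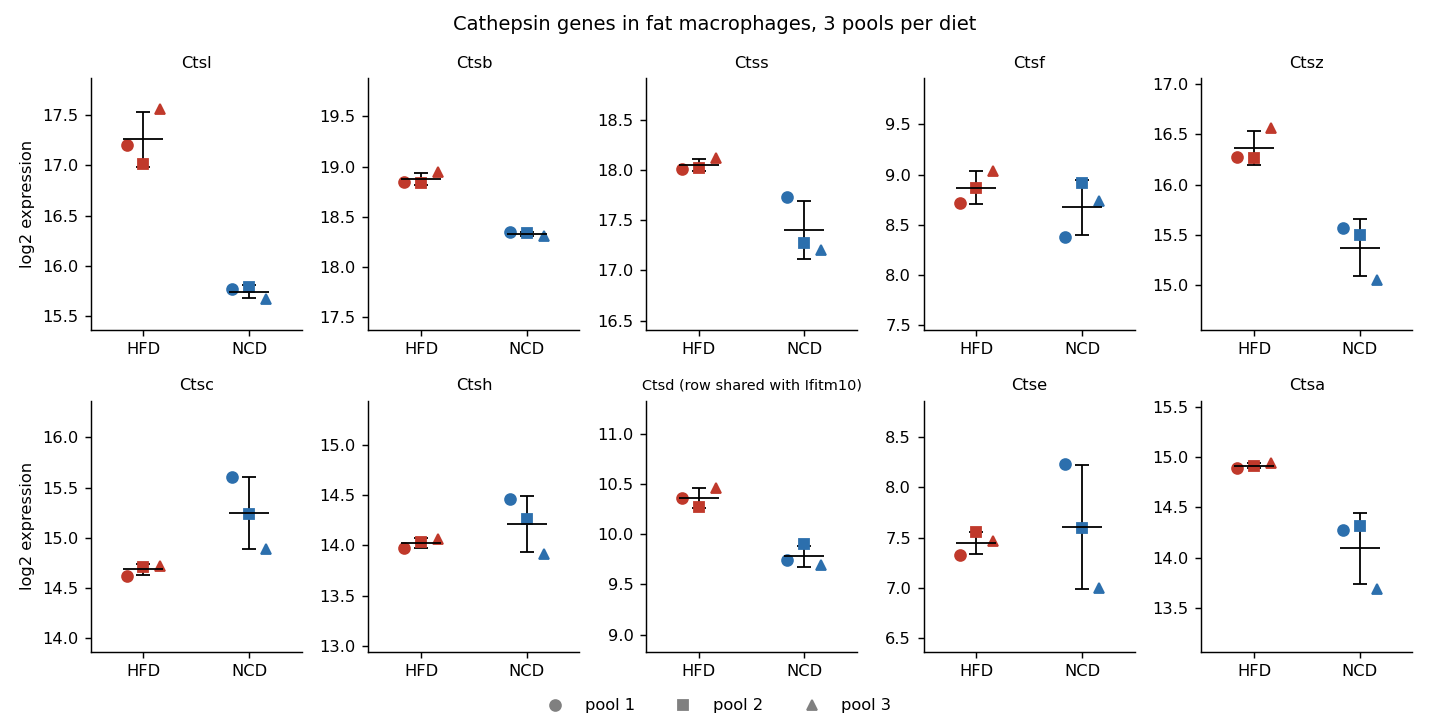
Log2 expression of the 10 cathepsin genes (vertical axes, each spanning the same range of log2 units around its own middle) in 3 HFD pools (red) and 3 NCD pools (blue). Symbols mark the pools, and black lines the mean ± SD of 3 arrays. HFD and NCD pools are apart for Ctsl, Ctsb, Ctss, Ctsz, Ctsd and Ctsa, with HFD higher, and for Ctsc, with HFD lower.

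The promoter windows of the members are shown because the letters CACGTG of the element described above can be looked for in them. RefSeq windows (GRCm38.p6, 250 bases before to 50 after a start) were matched by symbol for 7 of the 10 members, with 8 windows in all, as Ctsa has starts at separate places. The letters CACGTG, which read the same on both strands, occurred in 4 of these 8 windows, those of Ctsa (1 of its windows), Ctsd, Ctsf and Ctsl, against 7.15% of 32851 windows over all genes. The longer form TCACGTGA, which contains the shorter one and also reads the same on both strands, occurred in windows of Ctsa and Ctsd, against 0.974% of all windows. The stretches that hold a match are given below, 5′ to 3′ in the direction of the gene, each with the 250 bases before the start, and for Ctsa also the first 20 bases of the transcript; capitals mark CACGTG.
Ctsl, chr13:64370521-64370770, minus strand: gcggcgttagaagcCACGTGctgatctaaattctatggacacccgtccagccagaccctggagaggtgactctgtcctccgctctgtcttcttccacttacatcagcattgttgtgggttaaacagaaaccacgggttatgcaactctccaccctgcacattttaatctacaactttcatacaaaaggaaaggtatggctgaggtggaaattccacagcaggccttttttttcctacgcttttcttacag
Ctsd, chr7:142387828-142388077, minus strand: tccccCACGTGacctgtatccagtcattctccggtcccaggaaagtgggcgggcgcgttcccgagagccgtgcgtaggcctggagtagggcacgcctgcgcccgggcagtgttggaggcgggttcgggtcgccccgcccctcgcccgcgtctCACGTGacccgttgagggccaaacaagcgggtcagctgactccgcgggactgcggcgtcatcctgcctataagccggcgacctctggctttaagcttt
Ctsa, chr2:164833523-164833792, plus strand: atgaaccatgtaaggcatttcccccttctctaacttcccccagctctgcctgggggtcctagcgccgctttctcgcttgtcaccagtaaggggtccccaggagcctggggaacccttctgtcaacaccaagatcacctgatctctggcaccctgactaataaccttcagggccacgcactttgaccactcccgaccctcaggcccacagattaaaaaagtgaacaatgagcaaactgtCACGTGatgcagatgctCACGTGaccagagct
Ctsf, chr19:4854915-4855164, plus strand: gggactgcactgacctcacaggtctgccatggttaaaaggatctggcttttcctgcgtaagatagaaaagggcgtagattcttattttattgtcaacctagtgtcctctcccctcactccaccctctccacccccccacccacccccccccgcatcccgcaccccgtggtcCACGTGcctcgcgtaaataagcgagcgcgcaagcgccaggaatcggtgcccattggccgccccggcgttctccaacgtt
Counted from the start, the matches began at −236 in Ctsl, at −245 and −98 in Ctsd, at −12 and 6 in Ctsa, and at −79 in Ctsf. Of these 4 genes Ctsl and Ctsa rose in HFD, as did the row that Ctsd shares with Ifitm10, and Ctsf was not called. Ctss and Ctsz, which also rose, had 0 matches in their windows, and so did Ctsc. The windows of Ctsb, Ctse and Ctsh were not analysed here. A match is a run of letters, and binding at it was not measured, nor which start these cells use. The Ctsl stretch ends in a run of mostly t and c followed by ag, letters also found where an intron ends. Whether its window lies at a promoter was not tested. No link between a match and a change with diet was tested either.

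Among the cysteine endopeptidases, which cut inside protein chains, 3 of 4 rose. Ctsl encodes cathepsin L, a broad lysosomal protease that also cuts the invariant chain in some cells and can act outside the cell. Its log2 values were 17.21, 17.02 and 17.56 on HFD1 to HFD3, against 15.77, 15.79 and 15.67 on NCD1 to NCD3. The lowest HFD array was 1.22 above the highest NCD array, and the HFD arrays were the more spread, at 17.26 ± 0.28 against 15.75 ± 0.06 (mean ± SD, n = 3 each). The change of 1.52 ± 0.15 (moderated standard error; 95% interval 1.16 to 1.87, limma adjusted p = 0.00577) had the smallest adjusted p of the 10 members. It was called without each array in turn, at changes of 1.37 to 1.64.

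Ctsb encodes cathepsin B, an abundant lysosomal protease that also removes dipeptides from the end of a chain. It had log2 values of 18.85, 18.83 and 18.95 on the HFD arrays and 18.35, 18.34 and 18.31 on the NCD arrays. Both diets were tight here, and the diets did not overlap. The change was 0.55 ± 0.07 (limma adjusted p = 0.00966), the smallest of the 6 rises. Without HFD2 the adjusted p was 0.0536 and without HFD3 it was 0.0543, with changes of 0.57 and 0.51.

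Ctss encodes cathepsin S, the protease that makes the last cuts in the invariant chain of MHC class II and stays active at neutral pH. Its log2 values were 18.01, 18.02 and 18.12 on the HFD arrays, against 17.73, 17.27 and 17.20 on the NCD arrays. All HFD arrays were higher, by 0.28 between the nearest arrays, and NCD1 stood closest to them. The change of 0.65 ± 0.15 was close to the threshold (limma adjusted p = 0.0485). The Ctss call was lost without any 1 of HFD1, HFD2, HFD3, NCD2 and NCD3 (changes 0.55 to 0.67) and kept without NCD1, where the change was 0.81. Ctsf encodes cathepsin F, another lysosomal cysteine protease, which can process the invariant chain in macrophages. It had 8.71, 8.86 and 9.04 on the HFD arrays and 8.38, 8.91 and 8.73 on the NCD arrays. The diets overlapped, and the Ctsf change was 0.20 with a 95% interval of −0.20 to 0.60 (limma adjusted p = 0.547). Without 1 array it ran from 0.05 (NCD1) to 0.32 (NCD2), not called.

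Of the 3 cysteine exopeptidases, which trim chains from an end, Ctsz rose and Ctsc and Ctsh did not pass the test. Ctsz encodes cathepsin Z (also called X), a carboxypeptidase that takes single residues from the end of a chain. Its log2 values were 16.27, 16.26 and 16.57 on the HFD arrays, against 15.57, 15.50 and 15.05 on the NCD arrays. NCD3 was the lowest array, and the diets were 0.69 apart at their nearest arrays. The Ctsz change was 0.99 ± 0.17 (95% interval 0.594 to 1.395, limma adjusted p = 0.0210). It was not called without HFD1, HFD2, HFD3 or NCD2 (adjusted p of 0.0608 to 0.0964, changes of 0.90 to 1.06).

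Ctsc encodes cathepsin C, the dipeptidyl peptidase that activates the serine proteases of granulocyte, mast cell and lymphocyte granules. It was the 1 member with all HFD arrays below all NCD arrays, at 14.62, 14.71 and 14.72 on the HFD arrays and 15.61, 15.23 and 14.89 on the NCD arrays. The nearest arrays were 0.17 apart, and the NCD arrays spread over a wider range than the gap. The Ctsc change was −0.56 ± 0.18 (95% interval −0.996 to −0.119, limma adjusted p = 0.123). It was called lower only without NCD3 among the fits that leave out 1 array (−0.73, adjusted p = 0.0420). Ctsh encodes cathepsin H, the aminopeptidase of the family. It had 13.97, 14.04 and 14.07 on the HFD arrays and 14.47, 14.26 and 13.92 on the NCD arrays. The HFD arrays lay within the NCD range, and the Ctsh change was −0.19 (95% interval −0.56 to 0.18, limma adjusted p = 0.526). It was −0.06 without NCD1, −0.34 without NCD3 and −0.47 with a covariate for endothelial markers, described further on, and was called in none of these fits.

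The aspartyl proteases use a pair of aspartates at the active site. Ctsd encodes cathepsin D, a main protease of the lysosome. The row shared by Ctsd and Ifitm10 had 10.36, 10.27 and 10.46 on the HFD arrays, against 9.74, 9.90 and 9.70 on the NCD arrays. The diets did not overlap, with 0.37 between the nearest arrays. The change of 0.58 ± 0.11 was called (limma adjusted p = 0.0314), and the call was kept without NCD1 but lost without any other array (changes of 0.53 to 0.64). Ctse encodes cathepsin E, an endosomal aspartyl protease found in some immune and epithelial cells. Its log2 values were 7.33, 7.55 and 7.46 on the HFD arrays and 8.23, 7.60 and 6.998 on the NCD arrays. The NCD arrays lay on both sides of all HFD arrays, and the Ctse change was −0.16 (95% interval −0.86 to 0.54, limma adjusted p = 0.803). Without NCD1 the Ctse change was 0.15.

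Ctsa encodes the protective protein that holds lysosomal beta-galactosidase (Glb1) and sialidase (Neu1) in a complex, and is a carboxypeptidase itself. It had log2 values of 14.89, 14.92 and 14.94 on the HFD arrays, against 14.27, 14.32 and 13.69 on the NCD arrays. The HFD arrays were nearly alike (SD 0.025), and NCD3 was lowest. The Ctsa change was 0.82 ± 0.18 (limma adjusted p = 0.0436). The call was lost without HFD1, HFD2, HFD3 or NCD2 (adjusted p of 0.0773 to 0.165), while the change was 0.62 without NCD3 and called.

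**Figure D2:**
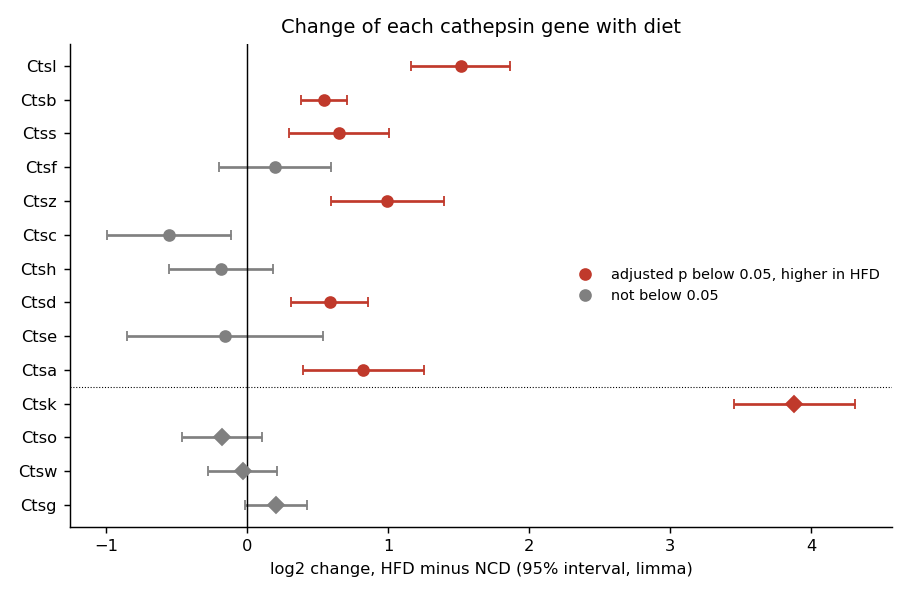
Change of each cathepsin gene on the log2 scale, HFD minus NCD (horizontal axis), with unadjusted 95% intervals from limma over 3 arrays per diet. Circles are the 10 members and diamonds below the dotted line are other cathepsin genes; red marks an adjusted p below 0.05, which 6 members and Ctsk reach.

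To set the members against each other without comparing levels of different probe sets, each gene's log2 value was taken relative to the mean of the other 9 on the same array, and that difference was compared between diets. Relative to the others, Ctsl was 1.19 higher in HFD than in NCD, Ctsz 0.62 higher and Ctsa 0.43 higher. Ctsc was lower by this measure (−1.11), as were Ctsh (−0.70) and Ctse (−0.67). For these 6 genes and Ctss (0.23) the diets did not overlap, and the two-sided exact permutation p was 0.1, the smallest that 3 arrays against 3 allow (0.143 adjusted over the 10 genes). For Ctsb (0.12), Ctsd (0.16) and Ctsf (−0.27) the diets overlapped (exact permutation p of 0.3 to 0.4). Against the median of the others in place of their mean, Ctss was at 0.12 (exact permutation p = 0.5). Leaving out 1 array moved the value of Ctsl between 1.09 and 1.31, that of Ctsc between −1.18 and −0.998, that of Ctse between −0.88 and −0.41 and that of Ctss between 0.12 and 0.32. A gene that moved less than the others takes a negative value here, so such a value is not a fall. With a smallest possible p of 0.1, no member could pass 0.05 in this exact permutation test.

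**Figure D3:**
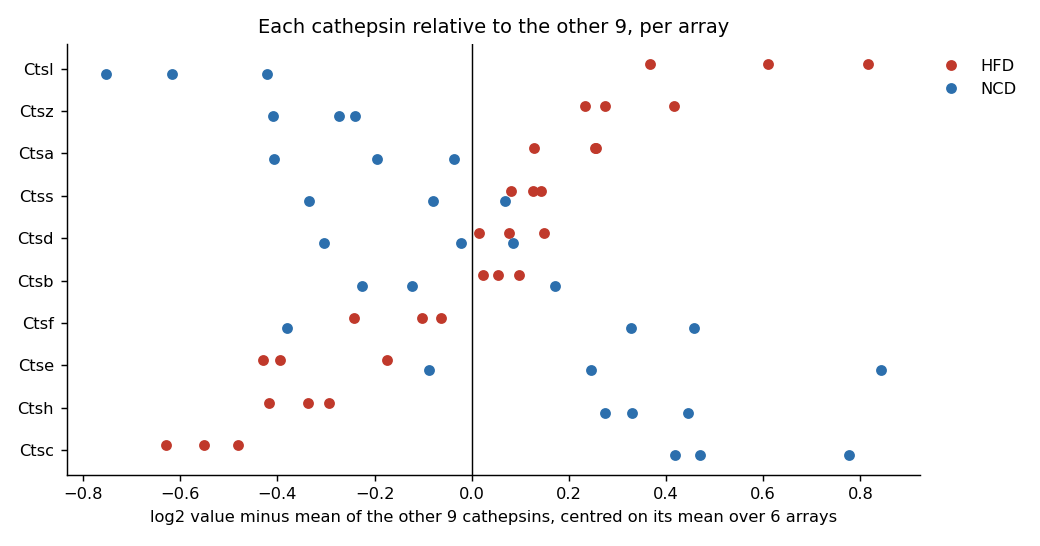
Log2 value of each cathepsin gene minus the mean of the other 9 on the same array, centred on the gene's mean over 6 arrays (horizontal axis). Each point is 1 array, HFD in red and NCD in blue. HFD arrays lie to the right for Ctsl, Ctsz and Ctsa and to the left for Ctsc, Ctsh and Ctse.

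The NCD pools varied more than the HFD pools in these genes. The SD of the 3 arrays was larger in NCD in 8 of the 10 members, the exceptions being Ctsl and Ctsb, and in 64.1% of all genes. The median SD over members was 0.079 in HFD and 0.28 in NCD. NCD3 was the lowest NCD array in 9 of 10 members, Ctsf being the exception, and in 42.9% of all genes. The mean over 7 macrophage markers was 14.93 to 15.13 on the HFD arrays, against 14.81, 14.90 and 14.17 on NCD1 to NCD3, so NCD3 was the lowest array there too. Adgre1, the gene of the sorting antigen, was at 15.05 on NCD3. Among those markers Cd68 and Fcgr1 rose, Mertk fell, and Adgre1, Cd14, Csf1r and Lyz2 were not called. The Cd68 call was lost without any HFD array or NCD2, the Fcgr1 call without HFD2 or HFD3 and the Mertk call without any array but NCD1, while Adgre1 was called higher without NCD1 (1.11) or NCD3 (0.59) and Cd14 lower without NCD3 (−1.01). Fewer macrophages in a pool and less of an RNA per macrophage cannot be told apart in bulk RNA, and the part of this difference in the cathepsin values was not tested.

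Markers of other cells moved between the arrays as well. The mean of 8 endothelial markers was 12.70, 11.34 and 11.31 on HFD1 to HFD3 and 12.13, 14.19 and 14.60 on NCD1 to NCD3, with 0 of 8 called by limma and 6 of 8 lower at an unadjusted p under 0.05. With this mean as a covariate Ctsl alone of the 10 members was called (1.45, adjusted p = 0.0341), while Ctss was at 0.33, Ctsa at 0.60, Ctsz at 0.73, Ctsd at 0.60 and Ctsb at 0.51 (adjusted p of 0.111 to 0.362). In that fit Ctsc was at −0.94 (adjusted p = 0.0565) and Ctse at −0.82 (adjusted p = 0.151). The 6 smooth muscle and 5 mesothelial markers were all lower in HFD, though 3 of the 5 mesothelial markers had means below background. Of the fibroblast markers 5 of 6 were higher, and of the mast cell markers 4 of 6. The remaining fibroblast marker, Dcn, went the other way without being called (−0.88, limma adjusted p = 0.126). All its HFD arrays lay below all its NCD arrays.

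The mean of 4 measured B cell markers was 8.31 to 8.92 on the HFD arrays and 11.01, 9.22 and 8.82 on NCD1 to NCD3, with 0 of 4 called and 1 lower at an unadjusted p under 0.05. Ms4a1, which encodes CD20, was at 13.09 on NCD1 and at 10.97 and 10.35 on the other NCD arrays. Of the NCD arrays, NCD1 was the highest and NCD3 the lowest in 6 members, the uncalled Ctsc, Ctse and Ctsh and the risers Ctsb, Ctss and Ctsz. In Ctsb the NCD arrays barely differed (SD 0.02). The share of all genes with this order was not counted, so the number of members is not set against it. Napsa, an aspartyl protease gene related to Ctse, had the same order (8.42, 8.73 and 8.29 on the HFD arrays and 10.24, 9.28 and 8.51 on the NCD arrays). The part of B cells in these values was not tested. Neutrophil markers stood out on HFD3, with a mean over 6 genes of 10.84, against 7.57 and 7.51 on HFD1 and HFD2 and 8.77 to 9.42 on the NCD arrays, and 0 of 6 were called by limma, also at an unadjusted p under 0.05. Monocyte markers (3 measured), dendritic cell, eosinophil (4 measured), T and NK cell and adipocyte (4 measured) markers gave 1 call, a lower Cd209a in HFD.

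**Figure D4:**
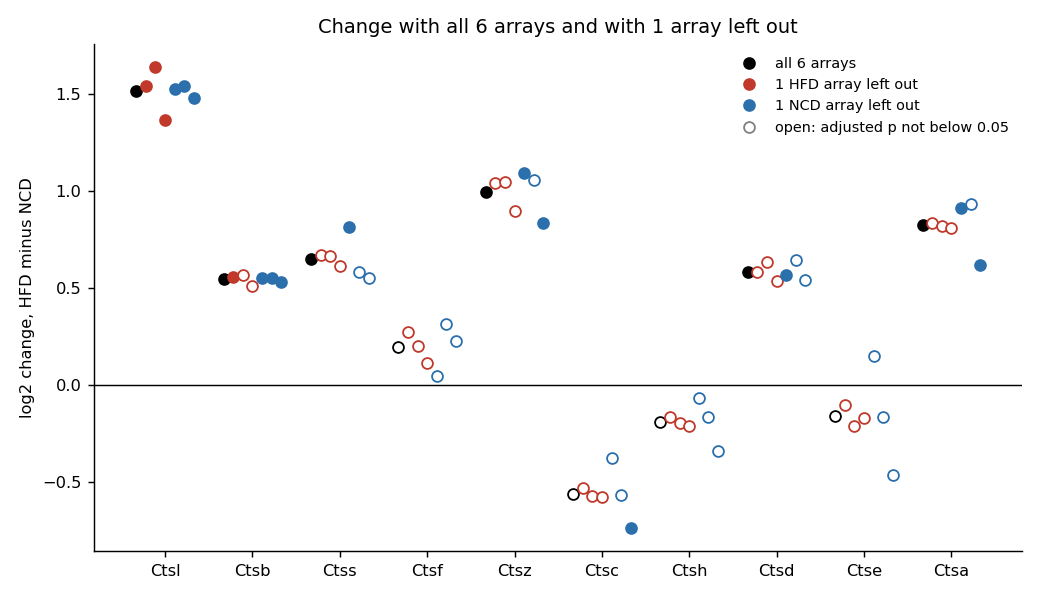
Change of the 10 cathepsin genes on the log2 scale, HFD minus NCD (vertical axis), with all 6 arrays (black), without 1 HFD array (red) and without 1 NCD array (blue). Filled points have an adjusted p below 0.05 and open points do not. Ctsl is filled throughout, the other risers are filled in some fits, and their direction is the same in all.

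Ctsk, a collagen-cutting cathepsin best known from osteoclasts, had a larger change than any of the 10 members. It was at 14.69, 14.46 and 14.85 on the HFD arrays, against 11.10, 10.65 and 10.60 on the NCD arrays, and rose 14.7-fold (3.88 ± 0.18, limma adjusted p = 0.000772). Ctsk and Ctss are next to each other in the RefSeq gene order, so direct neighbours changed by 3.88 and 0.65. Ctso, a lysosomal cysteine cathepsin, was at −0.18 (adjusted p = 0.422). Ctsw, the cathepsin of cytotoxic lymphocytes, and Ctsg, a serine protease of neutrophil and mast cell granules, had mean levels below background and were not called (−0.03 and 0.20). All 9 placental cathepsin genes, relatives of Ctsl that rodents express in the placenta, had means below background; 0 of them were called by limma, with 1 higher and 0 lower at an unadjusted p under 0.05.

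Of the 20 protein-coding genes directly beside the 10 members in RefSeq order, 6 were called higher and 0 lower (all-row shares 4.9% and 2.83%). These were Ctsk beside Ctss, Ifitm10 on the row it shares with Ctsd, Neurl2 beside Ctsa (1.31), Cdk20 beside Ctsl (1.63), Fdft1, a sterol synthesis gene beside Ctsb (0.70), and Rab7b, a GTPase gene of late endosomes beside Ctse (1.93). Ctse and Rab7b are thus neighbours of which one rose and the other was not called. The Ifitm10 call is the call of the Ctsd row itself and not a separate one. Neighbours were taken by position alone, and overlap of their probes was not tested.

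Genes that deliver cathepsins to the lysosome and mature them rose in part: 9 of 15 were higher, 0 were lower (0 also at an unadjusted p under 0.05), and the median change was 0.64. Igf2r, the large receptor for mannose 6-phosphate, was at 13.72, 13.72 and 14.13 on the HFD arrays, against 11.50 to 12.17 on the NCD arrays. It rose 3.92-fold (1.97 ± 0.21, limma adjusted p = 0.00729), and kept its call whichever array was left out, and also with the endothelial covariate (2.25). Gnptab, which encodes the enzyme that starts the mannose 6-phosphate tag, rose by 1.39 ± 0.18 (limma adjusted p = 0.0105), with a call lost without HFD2, HFD3 or NCD2. Nagpa, the enzyme that uncovers the tag, rose by 0.64, and the small receptor M6pr by 0.73. The enzyme's gamma subunit gene Gnptg was at 0.24 (adjusted p = 0.227).

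The adaptors Gga1 (0.59) and Gga2 (0.90), which load the receptors into vesicles, rose, and Gga3 (0.40) was not called. Of the retromer, which returns sorting receptors to the Golgi, Vps35 rose (0.79), while Vps26a (0.67, adjusted p = 0.0579) and Vps29 (0.52, adjusted p = 0.0666) were not called. Lgmn, the asparaginyl endopeptidase that cuts several cathepsins into their chains, rose 1.94-fold (0.96 ± 0.13) and Psap, the precursor of the saposins, rose 1.52-fold. The sorting receptors Sort1 (0.43) and Sorl1 (0.52) were not called. The number of these 15 genes called higher was 4 without HFD1, 2 without HFD2, 1 without HFD3, 10 without NCD1, 3 without NCD2, 4 without NCD3 and 2 with the endothelial covariate. Over all rows the number called higher without 1 array was also largest without NCD1, at 2513 against 1554 in the reported fit.

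Among 6 other lysosomal peptidases 4 rose and 0 fell (0 also at an unadjusted p under 0.05). Beside Lgmn these were the tripeptidyl peptidase gene Tpp1 (0.97 ± 0.13), the dipeptidyl peptidase gene Dpp7 (1.16 ± 0.19) and Scpep1, a serine carboxypeptidase gene related to Ctsa (0.87 ± 0.20). Prcp (0.29) and Cpq (0.35) were not called. The number called was 2 without HFD1, 0 without HFD2 or HFD3, 5 without NCD1, 2 without NCD2, 3 without NCD3 and 0 with the covariate.

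Of 11 inhibitor genes of cysteine cathepsins 1 rose, 0 fell (1 at an unadjusted p under 0.05, Ctla2b) and 10 were not called. The riser was Cstb, which encodes stefin B, the inhibitor of the cytosol. It had 14.47, 14.57 and 14.92 on the HFD arrays, against 13.21, 13.29 and 12.73 on the NCD arrays, with every HFD array above every NCD array. It rose 2.98-fold (1.58 ± 0.19, limma adjusted p = 0.00959), with a call lost without HFD2 (1.62) and with the endothelial covariate (1.32). Cst3, the secreted cystatin C, was at 15.60, 15.61 and 15.77 on the HFD arrays and 15.54, 15.99 and 15.60 on the NCD arrays. The diets overlapped in Cst3 (−0.05, adjusted p = 0.871). Cst7, the cystatin that can inhibit cathepsin C in immune cells, had a mean below background, as had Cst6, Csta1, Stfa1 and Stfa2. Stfa2l1, a stefin gene, was at 10.05 on HFD3 and between 6.04 and 7.27 on the other arrays, the same array on which the neutrophil markers were high. Ctla2a and Ctla2b, whose products resemble the propeptide of cathepsin L, were at −1.35 and −1.44, and without NCD1 both were called lower. In that fit 2436 of all 31722 rows were called lower, against 897 in the reported fit. With the endothelial covariate Ctla2a was at 0.12 (adjusted p = 0.888), on the other side of 0, and Ctla2b at −0.31 (adjusted p = 0.468).

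Of 7 transcription regulators of lysosomal genes 1 rose, 0 fell and 6 were not called. At an unadjusted p under 0.05, where the share of all rows was not counted, 6 were higher and 0 lower. Irf8, a myeloid interferon regulatory factor, rose by 1.24 ± 0.21 (limma adjusted p = 0.0226), with a call lost without HFD1, HFD2, HFD3 or NCD2. Tfeb, whose product can bind the element built around CACGTG, had 8.30, 8.56 and 8.47 on the HFD arrays and 8.04, 7.99 and 7.82 on the NCD arrays. The diets did not overlap in Tfeb, which was not called (0.49, limma adjusted p = 0.0509). Its relatives Mitf (1.45, adjusted p = 0.0651), Tfec (0.74, adjusted p = 0.0836) and Tfe3 (0.46, adjusted p = 0.120) were not called, nor were the myeloid factor gene Spi1 (0.99) and Zkscan3 (0.15), a repressor of lysosomal genes. Tfeb, Mitf, Tfec, Spi1 and Irf8 were called higher without NCD1. Calls increased over the whole table in that fit, to 2513 rows higher and 2436 lower of 31722, against 1554 and 897 in the reported fit. With the endothelial covariate 0 of the 7 were called by limma, and Irf8 was at 0.79 (adjusted p = 0.0995), Mitf at 0.59, Spi1 at 0.42, Tfec at 0.39 and Tfeb at 0.32.

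Partners of the cathepsins in the same compartments gave 0 calls among 6 genes, with 2 higher and 0 lower at an unadjusted p under 0.05 (limma). Cd74, the invariant chain that cathepsin S cuts, was at 17.58, 17.97 and 17.69 on the HFD arrays and 18.07, 17.90 and 17.66 on the NCD arrays. The diets overlapped in Cd74 (−0.13, adjusted p = 0.664), and H2-DMa (−0.20) and H2-DMb1 (0.02) were not called. Ifi30, the lysosomal thiol reductase of antigen processing, was at 0.83 (adjusted p = 0.0754) and was called without NCD1 and without NCD3. With the endothelial covariate Ifi30 was at 0.48 (adjusted p = 0.483), Glb1 at 0.21 and H2-DMb1 at −0.61 (adjusted p = 0.131), and 0 of the 6 were called. The complex partners of Ctsa, Glb1 (0.56, adjusted p = 0.180) and Neu1 (0.02, adjusted p = 0.930), were not called. The row of Cd74 also carries Mir5107 and that of Glb1 carries Tmppe.

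Of 8 granule serine protease genes, a family in which cathepsin C activates many members, the mast cell genes Mcpt4 (1.66 ± 0.21), Cma1 (0.92) and Tpsb2 (0.89) rose, 0 fell and 5 were not called, with 1 lower at an unadjusted p under 0.05, Prtn3 (−0.51). Those 3 genes are also on the list of mast cell markers, and the neutrophil protease genes Elane (−0.00) and Ctsg had means below background. The NCD arrays of Cma1 (5.72 to 6.04) and Tpsb2 (5.78 to 6.06) were below background too. Those of Mcpt4 (6.29 to 6.45) were just above it. The Mcpt4, Cma1 and Tpsb2 calls were lost without HFD2 or NCD2, and those of Cma1 and Tpsb2 also without HFD3, while Prtn3 was called lower without NCD3 (−0.67). With the endothelial covariate Mcpt4 alone was called (1.90). Tpsb2 encodes a tryptase, and cathepsin C is known in mice for activating the chymases of mast cells. Of 5 measured aspartyl peptidase genes outside the cathepsins, Napsa, Bace1, Bace2, Pga5 and Pgc, 0 were called, and 2 were lower at an unadjusted p under 0.05. Bace1 (−0.64) and Bace2 (−1.49) were called lower without NCD1, a fit in which 2436 of all 31722 rows were called lower. With the endothelial covariate Bace1 and Bace2 were at −0.06 and −0.24 (limma adjusted p of 0.927 and 0.691).

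**Figure D5:**
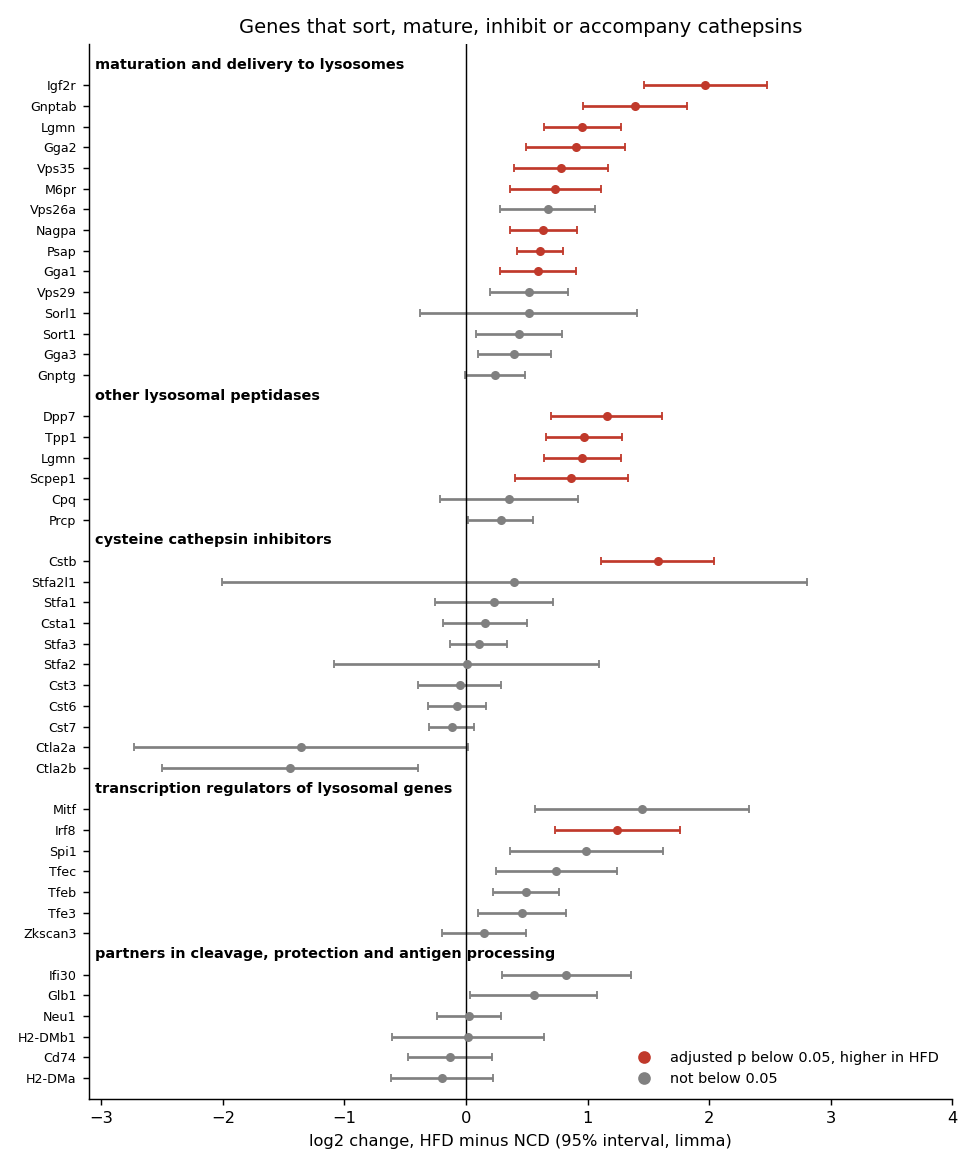
Change of genes that deliver, mature, inhibit, regulate or accompany cathepsins, on the log2 scale, HFD minus NCD (horizontal axis), with unadjusted 95% intervals from limma over 3 arrays per diet. Red points have an adjusted p below 0.05, which 9 of 15 delivery genes, 4 of 6 other peptidases, 1 of 11 inhibitors, 1 of 7 regulators and 0 of 6 partners reach.

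The genes whose pattern over the 6 arrays was closest to that of Ctsl were taken from all genes above background outside the family. Closeness was the root mean square difference of log2 values after centring each gene on its mean. The nearest was Mcm6, a subunit of the replicative helicase (difference 0.062), then Vipas39, which works with Vps33b in endosomal sorting (0.065), and Shc2, a signalling adaptor (0.10). The next were Gm13669, annotated as a pseudogene in RefSeq (0.11), and the cholesterol exporter gene Abcg1 (0.12). Their changes were 1.53 for Mcm6, 1.41 for Vipas39, 1.42 for Shc2, 1.47 for Gm13669 and 1.63 for Abcg1, close to the 1.52 of Ctsl, which the choice fixes. All 5 genes were, like Ctsl, highest on HFD3, and of the 5 calls Mcm6 alone was lost in a fit without 1 array (NCD2), and it was lost with the endothelial covariate too (adjusted p = 0.0558). The 5 genes are a description over 6 arrays of 2 diets.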

How the data were processed

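RNA of 6 macrophage pools (3 HFD, 3 NCD, 100 ng each) was measured on Affymetrix arrays. The values analysed are log2 expression per transcript cluster as deposited by the authors. Per the submitters' processing notes, RMA, version 1.4.1.46 of Affymetrix Expression Console and version 3.1.0.5 of Transcriptome Analysis Console were used; the step of each and the genome build are not given in the sources used here. Left out were 6732 control rows, which the table holds beside 65956 transcript clusters. Symbols came from the platform annotation, and 827 were updated through RefSeq by Entrez identifier. Rows with 1 or several symbols were used, per gene the row with the highest mean over 6 arrays, which gave 31722 rows. Background was the 95th percentile of 23 antigenomic probe sets, averaged over arrays.

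Diets were compared with limma 3.58.1 (lmFit, eBayes with trend) in R 4.3.3, two-sided, adjusted over all rows, and the test was checked on simulated data. The simulated noise was drawn independently for each row, so that check does not cover differences between arrays that many genes share. The median standard error of a change was 0.12, and the number of arrays limits precision. All p-values measure the spread between pools. Named genes were the 10 members, Ctsk, the called genes of 13 lists, the uncalled genes of short lists and the 5 genes closest to Ctsl; other uncalled genes, neighbours by position and markers were named after their values were seen. The members, lists and motifs were chosen with earlier results of these data known. Alternatives were other row sets, scalings, filters and variance models, a replicate block, an endothelial covariate and leaving out each array. Figures were drawn with matplotlib 3.10.9.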

Additional observations from a re-analysis of the deposited data

How the results depend on the processing

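All 6 rises kept their direction under the 16 alternatives (15 for Ctsd, whose row carries 2 symbols). The number of members called higher was 6 with median centring, quantile normalization, no variance trend, array weights and rows below background left out. It was also 6 with the mean over all rows of a gene, which leaves the members' values unchanged, as each has 1 row. It was 5 over rows with 1 symbol, where Ctsd is absent, 3 when all transcript clusters were tested and 1 with the endothelial covariate. Over fits without 1 array it ran from 1 to 6, and the number called lower from 0 to 1. With array weights 1 member was called lower, Ctsc (−0.55, adjusted p = 0.0444). Over all rows 2470 were higher and 2046 lower with array weights, and 364 and 409 with the covariate, against 1554 and 897 in the reported fit. Without 1 array the higher rows ran from 291 to 2513 and the lower rows from 117 to 2436, both largest without NCD1. Fits with 1 array fewer, the block or the covariate have fewer residual degrees of freedom, and the cause of a lost call was not tested.

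With the replicate block 0 members were called (Ctsl 1.52, adjusted p = 0.0578, 6 higher and 0 lower in the reported fit), and over all rows 71 were higher and 41 lower. Deviations of same-numbered arrays from their diet mean correlated at −0.46, −0.12 and −0.15. Those of differently numbered arrays correlated at −0.31 to 0.40. By this measure same-numbered arrays were not alike. Whether the numbers pair the samples cannot be told from it, as endothelial markers also differed between arrays of the same diet.

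Relative to the median of the other members in place of their mean, Ctsb was at −0.05 and Ctsd at −0.00, Ctsh at −0.81, Ctsl at 1.00, Ctsz at 0.47 and Ctss at 0.12 (exact permutation p = 0.5). Quantile normalization gave 0.81 for Ctss and 0.66 for Ctsb.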
